A study of Mus musculus with 2 samples.

Results

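Gsg1l, Mpped2, Mab21l1, Mab21l2, Sertad4 and Pamr1 are 6 less studied genes that were chosen by name from 22072 gene symbols because their RNA was higher in embryonic tongue of the Osr1 mutant. The contrast of mutant and control library was the one that chose them, so their ratios are a description and carry no test. The mutant tongues carried a conditional (floxed) allele of Osr1 over a null allele together with Wnt1cre (Osr1f/-; Wnt1cre). The control tongues carried the conditional allele beside a wild-type allele (Osr1f/+), and their label names no Wnt1cre. All embryos were at embryonic day 12 on a mixed background. Wnt1cre drives recombination in neural crest cells, which form the connective tissue of the tongue. Skeletal muscle, epithelial, blood and endothelial cells of the mutant are of other origin, so there the conditional allele stays intact beside the null allele. Effects of Wnt1cre and of the null allele outside the crest cannot be told apart from loss of Osr1 in the crest. Tongues of 3 mutant and control pairs were pooled for RNA, which was sequenced as 1 library a genotype, so no test between genotypes could be made and nothing here measures the spread between embryos.

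The 6 genes share no pathway. Gsg1l encodes a membrane protein related to claudins that binds AMPA-type glutamate receptors in brain neurons. Mpped2 encodes a metallophosphoesterase best known from fetal brain. Mab21l1 and Mab21l2 are paralogs named after a cell fate gene of the nematode Caenorhabditis elegans, and in the mouse they are known from development of the eye. Sertad4 belongs to the SERTA domain family, whose better known members act on cell cycle transcription. Pamr1 encodes a secreted protein with CUB, EGF-like, sushi and trypsin-like domains and was named for its link to muscle regeneration.

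The deposited values are FPKM, fragments scaled to transcript length and to library depth, so levels of different genes can be set side by side. From the coverage values, roughly 23200000 reads were mapped in the mutant and 18900000 in the control library. At that depth 3 reads on a 1 kb transcript equal 0.129 FPKM in the mutant and 0.159 FPKM in the control library. Osr1 itself (mm9 chromosome 12, 9581248 to 9588306) had 18.4 FPKM in the mutant and 56.8 FPKM in the control library, a ratio of 0.325, so Osr1 RNA was lower in the mutant library and not absent. Marker lists were summed to describe the tissue, which does not by itself identify it as tongue. Summed markers of facial mesenchyme came to 606 FPKM in the mutant and 633 FPKM in the control library. Of these 8 markers, 5 were higher and 3 lower in the mutant library. The largest ratio among them was that of Msx2, with 1.97 FPKM in the mutant and 0.860 FPKM in the control library. Markers of skeletal muscle summed to 559 FPKM in the mutant and 533 FPKM in the control library, yet 3 of these 9 were higher and 6 lower. The largest part of the sum was Actc1, with 322 FPKM in the mutant and 298 FPKM in the control library. A gene was called measured if it had at least 1 FPKM in either library and the status OK in both, which left 12383 genes. All 6 genes passed, and all 6 had at least 1 FPKM in both libraries.

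Sequences before the transcript starts are shown because the 2 transcript rows of Sertad4 begin at separate starts and had unequal ratios. RefSeq sequence of the 250 bases before a start was at hand for 3 of the 6 genes. For 4 windows the start lay within 100 bases of the GENCODE start of a transcript named in the deposited rows. They are shown 5′ to 3′ on the strand of the gene, from build GRCm38.p6. The first Sertad4 window, on chr1:192855753-192856002 (minus strand), precedes a RefSeq start at 192855752. The GENCODE start of NM_198247 is at 192855756, so the last bases of this window lie inside that model. The second, on chr1:192851748-192851997 (minus strand), precedes the start of NM_001177794. The Mpped2 window lies on chr2:106692931-106693180 (plus strand). It precedes a RefSeq start that lies within 100 bases of the GENCODE start of NM_001143683 but is not the same base. A further 2 Mpped2 windows, with 25 and 8 CpG dinucleotides, lay within 100 bases of neither GENCODE start and are not shown. The deposited row of NM_001143683, at 2662 nt, is shorter than its GENCODE model, at 2848 nt. Starts of the deposited mm9 rows were not compared with the windows. The window shown for Mpped2 therefore need not be the nearest to the deposited start. The Mab21l2 window lies on chr3:86548284-86548533 (minus strand) and precedes NM_011839. Capitals mark matches on either strand to any of 5 motifs. The first was ACAGTAGC, the letters of the odd-skipped family motif. The second, AGTAGC, is its shorter end and is contained in it. The others were the TATA box letters TATAAA, the letters CCAAT of the box of that name and the GC box letters GGGCGG.
Sertad4, first start: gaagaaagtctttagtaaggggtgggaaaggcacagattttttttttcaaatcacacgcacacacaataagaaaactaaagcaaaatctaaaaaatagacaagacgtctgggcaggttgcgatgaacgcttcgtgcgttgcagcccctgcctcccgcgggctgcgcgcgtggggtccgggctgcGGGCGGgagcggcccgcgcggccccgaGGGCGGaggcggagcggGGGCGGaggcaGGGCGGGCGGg
Sertad4, second start: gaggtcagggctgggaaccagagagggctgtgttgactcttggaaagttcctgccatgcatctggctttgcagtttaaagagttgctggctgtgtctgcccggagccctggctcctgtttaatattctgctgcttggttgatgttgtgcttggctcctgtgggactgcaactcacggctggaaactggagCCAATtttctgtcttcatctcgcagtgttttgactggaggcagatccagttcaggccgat
Mpped2: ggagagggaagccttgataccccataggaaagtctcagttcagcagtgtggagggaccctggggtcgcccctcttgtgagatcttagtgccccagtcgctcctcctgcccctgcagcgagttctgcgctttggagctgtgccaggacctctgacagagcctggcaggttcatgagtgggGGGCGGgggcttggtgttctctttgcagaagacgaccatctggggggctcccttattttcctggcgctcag
Mab21l2: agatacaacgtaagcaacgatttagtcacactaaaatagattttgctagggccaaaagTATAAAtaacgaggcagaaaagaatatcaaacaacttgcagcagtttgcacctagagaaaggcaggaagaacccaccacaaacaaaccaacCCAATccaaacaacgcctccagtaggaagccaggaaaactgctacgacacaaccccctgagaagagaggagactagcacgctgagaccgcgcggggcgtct

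The 2 Sertad4 windows differed in base composition. The first held 25 CpG dinucleotides and 5 matches to GGGCGG within 66 bases of its RefSeq start, of which 2 overlap each other. The second held 4 CpG and no GGGCGG, with 1 CCAAT that begins 60 bases before the start. Over all 32841 windows of this length the median was 6 CpG. The first window had more CpG than 89.3% of them and the second had more than 37.8%. The Mpped2 window held 7 CpG and 1 GGGCGG, and the Mab21l2 window held 10 CpG, 1 TATAAA and 1 CCAAT. Neither ACAGTAGC nor AGTAGC occurred in the 4 windows shown, which says only that these letters are not there. Of all windows, 0.749% held the longer and 7.99% the shorter of these motifs, 12.4% held the TATA box letters, 33.9% the CCAAT box letters and 32.7% the GC box letters.

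All 6 genes were higher in the mutant library, by plain FPKM ratios with a median of 1.91. On the scale of FPKM plus 1, 5 of the 6 were at least 1.5-fold higher, a size reached by 0.896% of all measured genes, and 1 was at least 2-fold higher, beside 0.468%. That contrast chose the genes, so nothing is read from this count. Their median log2 ratio was 0.86, beside 0.0035 over all measured genes. The 95% counting interval of the ratio lay above 1 for all 6, as it did for 10.7% of measured genes, while 10.3% lay below 1. These intervals rest on approximate read numbers. They cover counting error at most. They may be too narrow even for that, because reads without molecular identifiers need not be separate molecules.

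**Figure D1:**
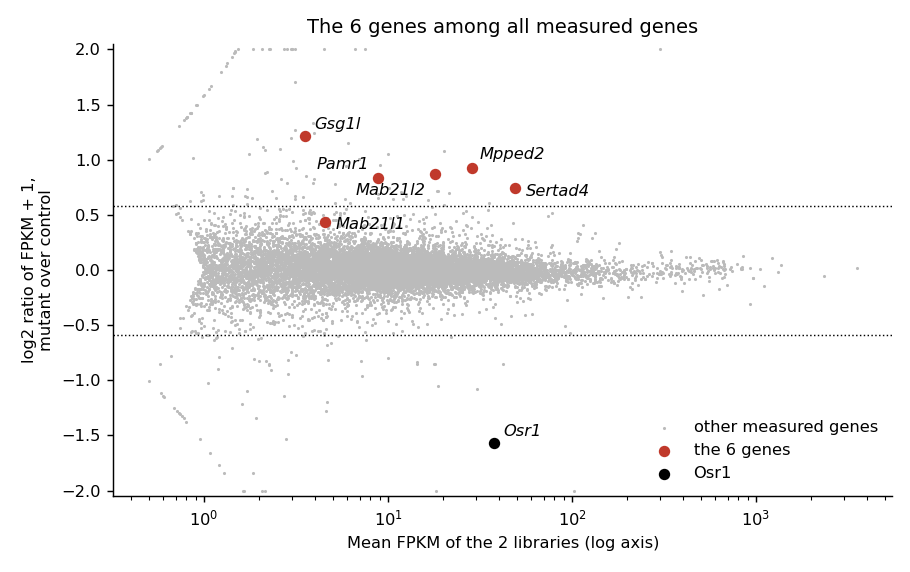
Each point is 1 of 12383 measured genes, with the mean FPKM of the 2 libraries on a log axis and the log2 ratio of FPKM plus 1, mutant over control, on the other, where values beyond 2 on either side are drawn at the edge and dotted lines mark 1.5-fold. Gsg1l, Mpped2, Mab21l2, Pamr1 and Sertad4 (red) lie above the upper line at 1.21, 0.93, 0.88, 0.84 and 0.74, Mab21l1 lies under it at 0.44, and Osr1 (black) lies at −1.57.

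Gsg1l (NM_001101488, mm9 chromosome 7, 133021933 to 133225925, 3924 nt spliced) had 5.34 FPKM in the mutant and 1.73 FPKM in the control library. It had the largest ratio of the 6, 3.08 (counting interval 2.53 to 3.76, from about 486 reads in the mutant and 129 in the control library). Of all measured genes, 40 had a larger log2 ratio on FPKM plus 1. It was also the least abundant of the 6 in the control, where 8.97% of measured genes had a lower level, against 30.5% in the mutant library.

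Mpped2 (mm9 chromosome 2, 106533616 to 106708517) had 37.8 FPKM in the mutant and 19.4 FPKM in the control library, summed over its 2 transcript rows. The ratio was 1.95 (1.79 to 2.09). Pamr1 (NM_173749), on the same chromosome at 102390178 to 102483197, had 11.6 FPKM in the mutant and 6.07 FPKM in the control library, a ratio of 1.91 (1.68 to 2.19). The ratios of these genes thus lay within each other's counting intervals, while Mpped2 was the more abundant gene in both libraries.

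Mab21l2 (NM_011839, mm9 chromosome 3, 86349503 to 86352205) had 23.6 FPKM in the mutant and 12.4 FPKM in the control library, a ratio of 1.90 (1.73 to 2.09). Its paralog Mab21l1 (NM_010750, mm9 chromosome 3, 55586432 to 55589209) had 5.38 FPKM in the mutant and 3.70 FPKM in the control library. Its ratio of 1.45 (1.21 to 1.74) was the smallest of the 6, and its counting interval overlapped that of Mab21l2 only narrowly. On FPKM plus 1, 202 measured genes had a larger log2 ratio than Mab21l1, against 65 for Mab21l2.

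Sertad4 (mm9 chromosome 1, 194670682 to 194681946) was the most abundant of the 6. It had 61.9 FPKM in the mutant and 36.6 FPKM in the control library, a ratio of 1.69 (1.62 to 1.79). The level lay above that of 93.9% of measured genes in the mutant and 87.5% in the control library. Sertad4 also had the largest absolute difference of the 6, 25.2 FPKM.

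The order of levels was the same in both libraries, with Sertad4 first, then Mpped2, Mab21l2, Pamr1, Mab21l1 and Gsg1l. Exact Poisson intervals of neighbours in this order did not overlap in the control library, where Mab21l1 had 3.21 to 4.27 FPKM and Gsg1l had 1.45 to 2.06 FPKM. In the mutant library Mab21l1, at 4.82 to 5.97 FPKM, and Gsg1l, at 4.88 to 5.84 FPKM, could not be told apart by counting error.

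**Figure D2:**
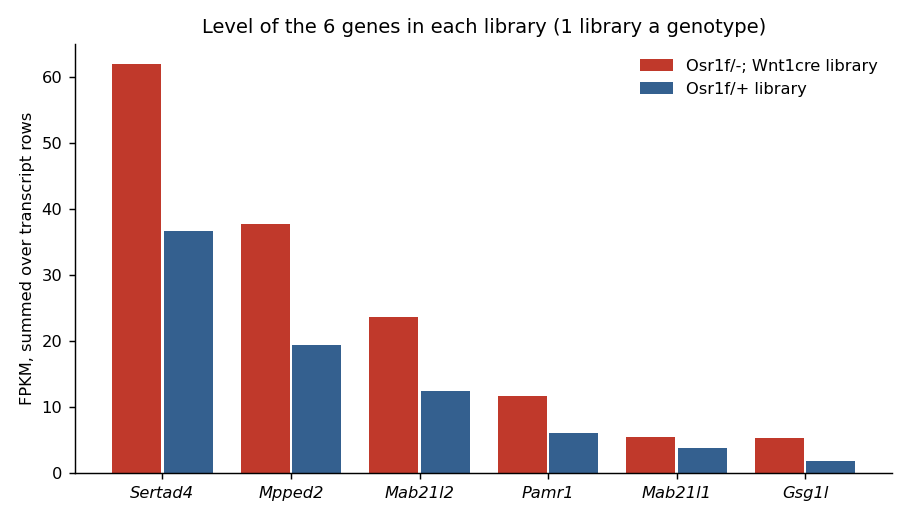
Bars give the FPKM of each gene, summed over its transcript rows, in the Osr1f/-; Wnt1cre library (red) and in the Osr1f/+ library (blue), with 1 library a genotype and so no error bars. The red bar is higher for all 6 genes, from 61.9 against 36.6 FPKM for Sertad4 to 5.34 against 1.73 FPKM for Gsg1l.

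Both transcript rows of Sertad4 were higher in the mutant library, by unequal ratios. NM_198247, from the start with the CpG-rich window, had 33.2 FPKM in the mutant and 16.6 FPKM in the control library, a ratio of 2.00. NM_001177794, from the second start, had 28.7 FPKM in the mutant and 20.1 FPKM in the control library, a ratio of 1.43. NM_198247 thus made up 53.6% of the gene's FPKM in the mutant and 45.2% in the control library. By the GENCODE models on GRCm38 the starts lie 4009 bases apart, both transcripts hold the same coding sequence of 1131 bases, and they share 3035 exon bases. Only 315 bases belong to NM_198247 alone and 55 to NM_001177794 alone, so the division of reads between them rests on few bases. The files give no error for it, and whether the shares differ beyond that error was not tested.

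Mpped2 also had 2 rows that were both higher in the mutant library. NM_001143683 had 28.3 FPKM in the mutant and 15.9 FPKM in the control library, a ratio of 1.78. NM_029837 had 9.45 FPKM in the mutant and 3.41 FPKM in the control library, a ratio of 2.77. The less abundant transcript therefore made up 25.0% of the gene in the mutant and 17.6% in the control library. Both have the same coding sequence, of 882 bases. The GENCODE model of NM_029837 is shorter, at 1217 nt, than the deposited row of 2375 nt, so the bases that set these rows apart could not be counted for the deposited models. The other 4 genes had a single row each.

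**Figure D3:**
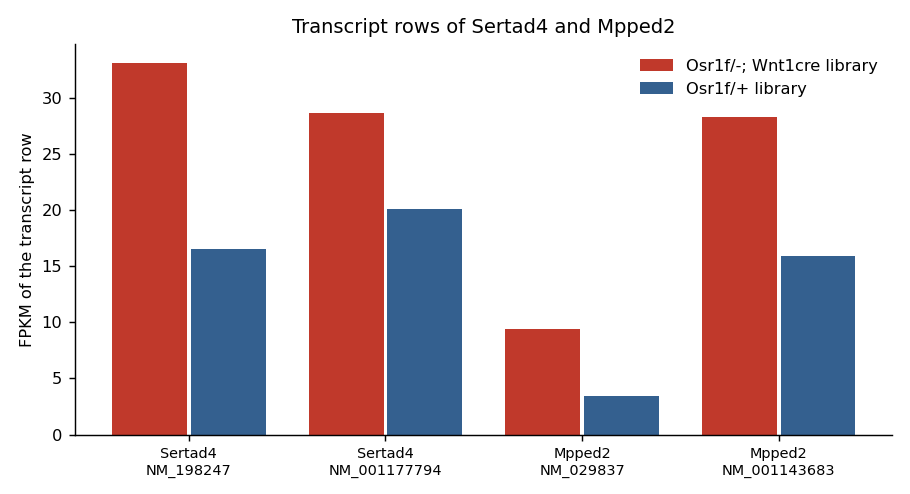
Bars give the FPKM of the 2 deposited transcript rows of Sertad4 and of Mpped2 in the Osr1f/-; Wnt1cre library (red) and in the Osr1f/+ library (blue), without error bars because the files give none. NM_198247 of Sertad4 was the higher row in the mutant (33.2 against 28.7 FPKM) and the lower row in the control (16.6 against 20.1 FPKM).

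Mab21l1 and Mab21l2 share a gene structure that the choice of genes did not use. Each is a single exon inside an intron of a larger gene on the opposite strand, on GRCm38 by GENCODE. Mab21l1 lies in intron 41 of 57 of Nbea, which encodes neurobeachin, and Mab21l2 lies in intron 40 of 56 of Lrba, a relative of Nbea. No exon base was shared with the RefSeq transcripts of either host, although other GENCODE transcripts of the hosts cover 981 bases of Mab21l1 and 1097 of Mab21l2. The strand setting is not given in the sources used here. Host reads from these covered bases therefore cannot be told apart from reads of Mab21l1 and Mab21l2. The deposited row of Mab21l1, at 2778 nt, is longer than its GENCODE model, at 2492 nt. Its further bases were not compared with the hosts. Nbea had 6.74 FPKM in the mutant and 6.36 FPKM in the control library, a ratio of 1.06 (0.986 to 1.14). Lrba had 3.98 FPKM in the mutant and 3.04 FPKM in the control library, a ratio of 1.31 (1.18 to 1.46). That interval lay above 1, as it did for 10.7% of all measured genes, and the ratio was smaller than that of Mab21l2. Coding sequences of Mab21l1 and Mab21l2, both of 1077 bases, were identical at 80.6% of positions. The longest run shared by their whole GENCODE transcripts, untranslated parts included, was 26 bases, shorter than the 47.2 bases estimated for 1 read. Alignments with mismatches were not examined, nor were bases of the deposited Mab21l1 row beyond its GENCODE model.

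The next question was whether genes beside the 6 on the chromosome were higher as well. The 3 nearest gene models on each side were taken, 36 in all, of which 24 were measured. Of these, 18 were higher and 6 lower in the mutant library, with a median log2 ratio of 0.04. Of all measured genes, 51.2% were higher and 48.8% lower in the mutant library. Only Rnu73b, a short RNA model inside Rps3a, was past 1.5-fold in either direction, from about 10 reads in the mutant and 2 in the control. At least 1.5-fold higher were 0.896% of all measured genes, and 0.581% were at least 1.5-fold lower. Beside Gsg1l, Xpo6 had 31.3 FPKM in the mutant and 30.8 FPKM in the control library, and D430042O09Rik had 5.26 FPKM in the mutant and 5.34 FPKM in the control library. Beside Mpped2, Dnajc24 had 5.69 FPKM in the mutant and 5.52 FPKM in the control library, and 2700007P21Rik had 21.5 FPKM in the mutant and 20.8 FPKM in the control library. Mpped2 and Pamr1 lie 4050418 bases apart on chromosome 2. None of the 20 measured genes between them was past 1.5-fold in either direction, and their log2 ratios ran from −0.17 to 0.09. Because 98.5% of all measured genes lay within 1.5-fold, nothing about this stretch is read from that count.

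A gene next to Sertad4 but one, Kcnh1, was too low to count as measured. This potassium channel gene had 0.617 FPKM in the mutant and 0.248 FPKM in the control library, a ratio of 2.48 (1.67 to 3.82, from about 101 reads in the mutant and 33 in the control library). Hhat, which lies between Kcnh1 and Sertad4 and encodes the acyltransferase of hedgehog proteins, had 3.70 FPKM in the mutant and 3.45 FPKM in the control library, a ratio of 1.07 (0.882 to 1.31).

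**Figure D4:**
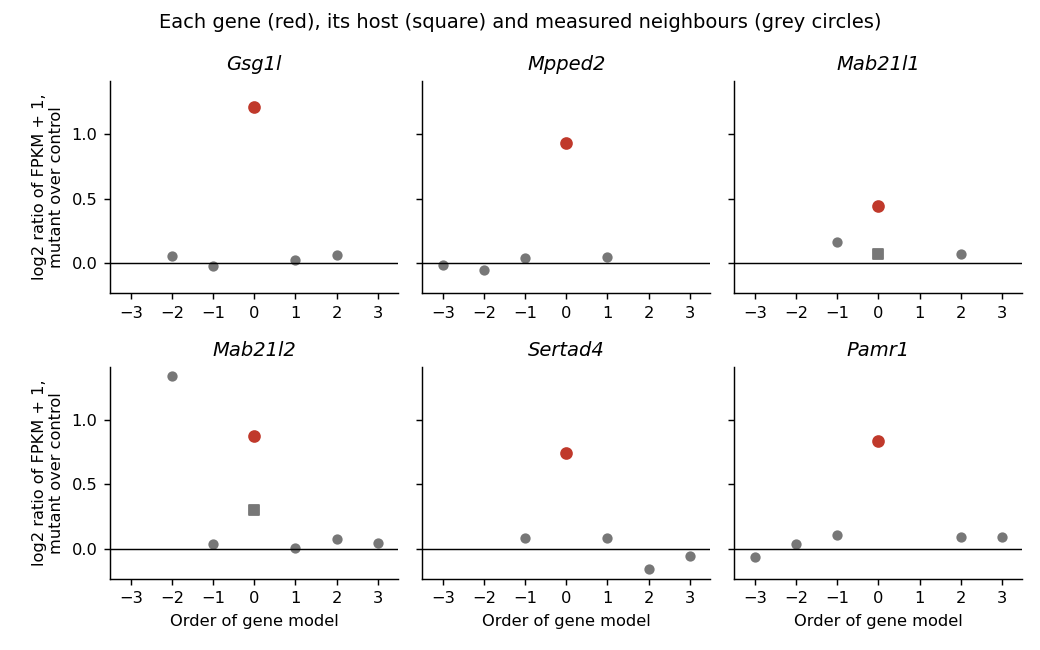
For each of the 6 genes, the log2 ratio of FPKM plus 1, mutant over control, is plotted against the order of gene models along the chromosome, with the gene in red at 0, its host as a grey square and its measured neighbours as grey circles. All neighbours lie between −0.16 and 0.16 except the short Rnu73b at 1.34, and the hosts Nbea and Lrba lie at 0.07 and 0.30.

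Relatives by family or function were then set beside the 6 genes, 27 in all, of which 16 were measured. Of the measured relatives, 7 were higher and 9 lower in the mutant library, with a median log2 ratio of −0.03. None was past 1.5-fold on FPKM plus 1. As 98.5% of all measured genes lay within 1.5-fold, nothing about the relatives is read from that count. Within the SERTA family, Sertad2 had 11.5 FPKM in the mutant and 11.3 FPKM in the control library, and Sertad1, an activator of cyclin-dependent kinase 4, had 4.77 FPKM in the mutant and 5.50 FPKM in the control library. Cdca4, a SERTA protein of dividing cells, had 28.2 FPKM in the mutant and 30.4 FPKM in the control library, a ratio of 0.928. Sertad4 was the most abundant family member in both libraries. Mpped1, the paralog of Mpped2, was low, at 1.38 FPKM in the mutant and 1.35 FPKM in the control library.

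Among the other relatives of Mab21l1 and Mab21l2, Mb21d2 (1600021P15Rik in the files) had 12.0 FPKM in the mutant and 12.2 FPKM in the control library. Cgas (E330016A19Rik), the sensor of cytosolic DNA, had 1.58 FPKM in the mutant and 1.22 FPKM in the control library, a ratio of 1.29 (0.989 to 1.69) whose counting interval included 1. Of the domain relatives of Pamr1, Masp1, a protease of the complement system, was the 1 that was measured, with 2.52 FPKM in the mutant and 2.39 FPKM in the control library. C1s, the complement protease of the classical pathway, stayed under 1 FPKM in both libraries, with 0.427 FPKM in the mutant and 0.955 FPKM in the control library.

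The AMPA receptor genes that encode the partners of Gsg1l in neurons were present at low levels. Gria3 had 5.11 FPKM in the mutant and 6.20 FPKM in the control library, a ratio of 0.824, and Gria1 had 1.82 FPKM in the mutant and 1.90 FPKM in the control library. Gria2 had 1.06 FPKM in the mutant and 0.736 FPKM in the control library, a ratio of 1.44 (1.09 to 1.93), and Gria4 had 0.879 FPKM in the mutant and 1.13 FPKM in the control library. Of 11 other auxiliary proteins of these receptors, 4 were measured, of which 1 was higher and 3 lower. The transmembrane regulatory protein gene Cacng7 had 37.2 FPKM in the mutant and 36.3 FPKM in the control library, and Cnih2, which encodes a cornichon protein, had 11.5 FPKM in the mutant and 12.9 FPKM in the control library. The counting interval of the ratio lay below 1 for Gria3 and Gria4 and above 1 for Gria2, and it included 1 for Gria1 and for the 4 measured auxiliary genes. Over all measured genes it lay below 1 for 10.3% and above 1 for 10.7%.

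**Figure D5:**
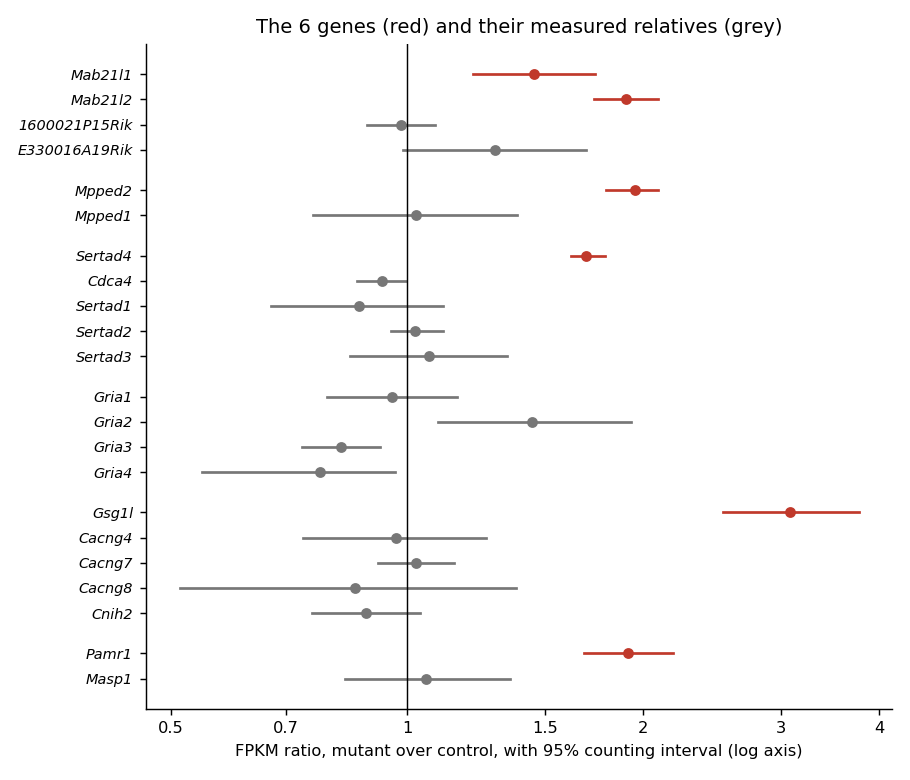
Points give the FPKM ratio, mutant over control, on a log axis with its 95% counting interval for the 6 genes (red) and their measured relatives (grey), grouped by family. All red intervals lie to the right of 1, from 1.45 for Mab21l1 to 3.08 for Gsg1l, and the grey points run from 0.775 for Gria4 to 1.44 for Gria2.

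Marker levels of cell types that could carry these genes moved between the libraries as follows. In bulk RNA, fewer cells of a type and less RNA per cell cannot be told apart. The 12 neuron markers summed to 40.7 FPKM in the mutant and 48.0 FPKM in the control library, and of 8 measured 3 were higher and 5 lower. The counting interval of the ratio lay above 1 for 1 of the 8 and below 1 for 4, beside 10.7% above and 10.3% below over all measured genes. The 1 above was Dcx, a microtubule protein of young neurons, which had 11.6 FPKM in the mutant and 8.79 FPKM in the control library. The 4 below were Gap43, Tubb3, Elavl4 and Snap25. Gap43, of growing axons, had 13.2 FPKM in the mutant and 16.3 FPKM in the control library. Tubb3, the neuronal tubulin, had 3.16 FPKM in the mutant and 6.33 FPKM in the control library. Snap25, of the synaptic vesicle fusion machinery, had 0.239 FPKM in the mutant and 3.45 FPKM in the control library. The neuronal markers Elavl3 and Prph were near 0, with 0.0991 FPKM of Elavl3 in the mutant and 0.215 FPKM in the control library, and 0.110 FPKM of Prph in the mutant and 0.0268 FPKM in the control library. The 7 Schwann lineage markers summed to 42.1 FPKM in the mutant and 52.0 FPKM in the control library. All 9 cartilage markers were higher in the mutant library, as were 51.2% of all measured genes. On FPKM plus 1, 3 of the 9 were at least 1.5-fold higher, beside 0.896% of all measured genes. Their sums were 223 FPKM in the mutant and 157 FPKM in the control library, a ratio of 1.42. Most of that was Col2a1, with 131 FPKM in the mutant and 98.4 FPKM in the control library. The part of these shifts in the values of the 6 genes was not tested. Epithelial markers summed to 81.7 FPKM in the mutant and 91.5 FPKM in the control library, and erythroid markers to 1177 FPKM in the mutant and 1429 FPKM in the control library. Endothelial markers came to 63.6 FPKM in the mutant and 59.3 FPKM in the control library, and macrophage markers to 15.8 FPKM in the mutant and 14.5 FPKM in the control library.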

How the data were processed

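Tongue RNA from 1 mutant and 1 control pool was turned into cDNA with NuGEN Ovation RNA-Seq v2, per the labels' protocols. TopHat 1.4.1, Bowtie 0.12.7 and the build mm9 are listed in the submitters' processing notes. Per the file headers, the authors deposited FPKM per RefSeq transcript in a Cufflinks layout, with a coverage signal that is not scaled for depth. No Cufflinks version, read length or strand setting is given in the sources used here. The authors' tool estimates the division of reads between overlapping transcripts.

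Rows were summed by symbol (28107 rows, 22072 symbols). Log2 ratios compare mutant with control after 1 FPKM was added to each, so differences of low genes are understated. Plain ratios are of FPKM. Approximate reads were coverage times length over 47.2 bases, the median of 966 products between 35 and 60 bases in single-row genes of at least 1000 nt. Exact conditional (Clopper-Pearson) 95% intervals of ratios and exact Poisson intervals of levels used these reads with scipy 1.17.1. In Mpped2 and Sertad4 the ratio of reads differs slightly from that of FPKM. Calculations were run on simulated reads of single-row genes, built with the same 47.2 bases. That value itself and genes with several rows were therefore not tested by the simulation. No test between genotypes was made. The 6 genes and all lists were chosen with earlier results of these data known. Named were the 6 genes, relatives, hosts, 3 neighbours a side, Osr1 and the 5 genes nearest to the median of the 6. File coordinates are mm9, counted from 1. GENCODE M21 and RefSeq sequence are on GRCm38 and were not mixed with mm9. Amino acid sequences were not used here. Alternatives were other pseudocounts, scalings, filters and the largest row alone.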

Additional observations from a re-analysis of the deposited data

How the results depend on the processing

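The 6 log2 ratios were recomputed under 8 alternatives each. None of the 48 values changed sign, and 39 stayed within the counting interval of the value reported. Those outside it belonged to Gsg1l (1.62 with no pseudocount, 1.57 with 0.1, 0.62 with 5 and 1.47 on the TPM scale, against 1.21), to Mpped2 (0.81 with a pseudocount of 5 and 0.79 for the largest row, against 0.93), to Mab21l2 (0.72 with 5, against 0.88), to Pamr1 (0.59 with 5, against 0.84) and to Sertad4 (0.96 for the largest row, against 0.74). A larger pseudocount pulls low values together by construction. With 2-fold in place of 1.5-fold the count of the 6 genes fell to 1, Gsg1l, and under the other alternatives it was 5. Without overlapping models 0 neighbours were past 1.5-fold, since Rnu73b overlaps Rps3a. For the relatives 4 alternatives were run (no filter, at least 5 FPKM, a pseudocount of 0.1 and no overlapping models), and 0 passed 1.5-fold in each. C1s, which was too low to count as measured, had a plain ratio of 0.447. No paired analysis was possible because there was 1 library a genotype. Depth limits Mab21l1 and Gsg1l most, with about 195 and 129 reads in the control.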

Other observations

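Among genes that reached 5 FPKM in a library, had a transcript of 300 nt or longer and no overlapping model, 5 had log2 ratios nearest to the median of the 6 genes, within 0.14 of it over the 2 libraries. Sdk1, which encodes a cell adhesion protein, had 5.22 FPKM in the mutant and 2.60 FPKM in the control library. Rarb, a retinoic acid receptor, had 13.0 FPKM in the mutant and 7.34 FPKM in the control library, a ratio of 1.77 (1.57 to 2.01). The other three were Irx2, Frzb and Sox9, with ratios of 2.18, 2.10 and 1.69. Sox9 is also 1 of the 9 cartilage markers. A likeness over 2 libraries is a description of those libraries.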
